A study of Mus musculus with 8 samples.

Results

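The 10 genes described here act on collagen after it has been translated. They are the prolyl hydroxylase subunits P4ha1 and P4ha2, the lysyl hydroxylase Plod2, the collagen chaperone Serpinh1, the procollagen C-proteinase Bmp1 and its enhancer Pcolce, the lysyl oxidases Lox, Loxl1 and Loxl2, and the collagen-binding protein Aebp1. They were chosen by name, and the count row with the highest total was used for each. They make up 10 of the 23483 genes in the count table. The libraries came from C57BL/6 mouse cells grown at 5.5 mM glucose, 2 libraries in each of 4 groups. The mESC group was embryonic stem cells, which the protocol keeps with LIF, and carried no construct. The untreated Sca1 group was cells sorted with anti-Sca1 magnetic beads after 4 days on gelatin without LIF, also without a construct; the protocol gives a purity above 80% by flow cytometry and growth over 2 to 8 population doublings. The NTC group was Sca1 cells with a MISSION non-target shRNA vector, and the knock-down group was Sca1 cells with a MISSION shRNA against Set7 (gene symbol Setd7), a lysine methyltransferase. The protocol selects both lentiviral groups in puromycin, which untreated Sca1 cells did not receive as a labelled treatment. One shRNA sequence is given for the knock-down. The count rows used were NM_011030 (P4ha1), NM_001136076 (P4ha2), NM_001142916 (Plod2), NM_001111043 (Serpinh1), NM_009755 (Bmp1), NM_008788 (Pcolce), NM_010728 (Lox), NM_010729 (Loxl1), NM_033325 (Loxl2) and NM_009636 (Aebp1). Nothing in the labels says that the libraries of a group came from separate cultures, so p-values measure only the spread between these libraries, which may be technical.

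Fibrillar collagen is made as a procollagen whose prolines and lysines are hydroxylated in the endoplasmic reticulum before the chains fold into a triple helix. Prolyl hydroxylation makes the helix stable at body temperature, and Serpinh1 (HSP47) binds the folded helix and escorts it out of the compartment. Outside the cell the propeptides are cut away, fibrils assemble, and lysyl oxidases turn lysine and hydroxylysine side chains into aldehydes that form crosslinks.

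The RefSeq promoter table (GRCm38.p6) held 5 of the 10 genes: Pcolce, Serpinh1, P4ha1, Aebp1 and P4ha2. Printed here are the 250 bases before the start of Serpinh1 (chr7:99353240-99353489, minus strand), P4ha1 (chr10:59323046-59323295, plus strand) and P4ha2 (chr11:54100674-54100923, plus strand). They were chosen because these 3 windows hold ACGTG, a form of the hypoxia response element core, and all 3 genes work in the endoplasmic reticulum. Another form, GCGTG, was not searched and is not marked. The P4ha1, P4ha2 and Pcolce windows hold it on either strand. Capitals mark matches on either strand to ACGTG, to GGGCGG (a GC box) and to CAGAC (a SMAD-type motif). Each is written 5′ to 3′ on the strand of its gene.
P4ha1: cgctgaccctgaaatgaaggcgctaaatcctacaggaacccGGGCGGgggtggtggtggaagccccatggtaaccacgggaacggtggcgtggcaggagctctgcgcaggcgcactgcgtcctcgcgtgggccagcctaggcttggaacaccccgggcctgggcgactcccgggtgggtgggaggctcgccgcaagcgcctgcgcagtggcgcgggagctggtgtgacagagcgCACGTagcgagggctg
P4ha2: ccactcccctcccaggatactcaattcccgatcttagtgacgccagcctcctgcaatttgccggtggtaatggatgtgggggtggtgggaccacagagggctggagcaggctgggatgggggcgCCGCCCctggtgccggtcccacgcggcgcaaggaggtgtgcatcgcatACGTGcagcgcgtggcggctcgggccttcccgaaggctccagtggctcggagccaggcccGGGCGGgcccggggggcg
Serpinh1: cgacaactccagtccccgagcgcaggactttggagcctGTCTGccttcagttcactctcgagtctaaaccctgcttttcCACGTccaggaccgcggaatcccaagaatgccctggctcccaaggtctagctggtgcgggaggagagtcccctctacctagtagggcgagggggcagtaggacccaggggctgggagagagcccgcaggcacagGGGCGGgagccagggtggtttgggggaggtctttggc

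ACGTG lay 16 to 12 bases before the start of P4ha1 and 171 to 167 before that of Serpinh1, on the opposite strand in both, and 78 to 74 before that of P4ha2 on the gene's own strand. It was in 16.6% of the 32851 promoter windows of this length. GGGCGG was in 4 of the 5 windows (all but Aebp1) and in 32.7% of all windows, and CAGAC was in 2 (Serpinh1 and Aebp1) and in 42.2%. Of the other motifs searched on both strands, none matched in the 5 windows: the CCAAT box (in 33.8% of all windows), the TATA box as TATAAA (12.4%), the AP-1 site TGACTCA (4.46%), the TEAD site CATTCC (12.6%), the heat shock element as GAANNTTC (6.69%) and the CArG box (1.47%). No match says only that these letters are not in this window. No 2 of the matched sites overlapped. The 5 windows were 58.8% to 70.0% G and C, against a median of 52.4% over all windows. These matches describe letters only and were not compared with any binding data.

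Levels are CPM, read counts scaled to library size with TMM factors. Setd7 stood at 11.2 and 16.5 CPM in mESC, 76.3 and 66.3 in untreated Sca1, 60.7 and 66.6 in NTC, and 14.0 and 10.8 in the knock-down. It was lower in both knock-down libraries than in both NTC libraries (log2 fold change -2.39 ± 0.20 SE; edgeR quasi-likelihood F test, adjusted p = 1.71e-07). Ly6a, which encodes the antigen used for the sort, was at 4.42 to 13.0 CPM in every group and did not pass the test in any comparison, so its transcript does not mark the sorted groups here. In knock-down against NTC its libraries did not overlap (0.92 ± 0.38, adjusted p = 0.126), and it passed in 3 of 17 alternatives, with an adjusted p of 0.00373 when the compared groups alone were fitted. Reads assigned to genes ranged from 2507938 to 5080266 per library. The libraries of mESC and of untreated Sca1 stood apart within their group: the chi-square per degree of freedom between them was 57.6 and 43.5, against 1.55 in NTC and 2.1 in the knock-down, and library 2 of each had a TMM factor of 0.8966 and 0.9045, where the other 6 were between 1.021 and 1.047. The fit pools 1 estimate of spread over all 4 groups, and calls of the 10 genes that were lost without 1 of these libraries are given with that value. The summed level of 6 smooth muscle markers was 38.5 to 47.4 CPM in mESC, 579.6 to 935 in untreated Sca1, 574 to 600.1 in NTC and 162 to 169.7 in the knock-down. That of 8 fibroblast and mesenchyme markers was 226 to 256, 137 to 165, 283 to 285 and 145 to 147 CPM in the same order, with Dcn and Lum at 0 in mESC. Most of this sum was Pdgfra, at 227 and 204 CPM in mESC and 83.7 and 85.3 in untreated Sca1. Of the 7 markers tested, 5 rose from mESC to untreated Sca1 and only Pdgfra fell, where 18.7% of all genes were called higher and 16.8% lower. The summed level of 8 pluripotency markers was 3376 to 3639.7, 2032 to 2362, 2172 to 2234 and 2727 to 2904 CPM. That of 10 endoderm markers was 767 to 827, 202 to 271, 461 to 471 and 476 to 544 CPM, and that of 5 endothelial markers 169 to 185, 51.2 to 52.2, 93.1 to 98.5 and 99.5 to 115, with Emcn at 0 in mESC and in the knock-down. In mESC, Cubn alone gave 439 and 558 CPM of the endoderm sum, and Pecam1 157 and 169 CPM of the endothelial one. The 4 blood markers in the table summed to at most 2.1 CPM in any library, with Hba-x at 0 in all of them.

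In the knock-down, all 10 genes fell against NTC. Their libraries did not overlap either, but the share of all genes without overlap was not counted, so that is a description only. Over all 13966 genes tested, 10.1% were called lower and 4.25% higher. The median log2 fold change of the 10 was -2.45, and that of all genes was 0.0. Pcolce, Lox and Loxl2 had the lowest log2 fold changes (-3.57, -3.2 and -3.0), and P4ha1 and Plod2 the ones nearest to 0 (-0.63 and -0.47). With 1 library left out, 7 to 10 of the genes were still called, and the calls lost were of Lox, P4ha1 and Plod2. Of the cell type markers in the same comparison, 5 of 7 tested fibroblast and mesenchyme genes and 4 of 6 smooth muscle genes fell, and 1 of 8 pluripotency genes rose. Their part in the fall of the collagen enzymes was not tested. In these bulk libraries, fewer cells of a type and less RNA per cell cannot be told apart. When untreated Sca1 was set against mESC, the genes split: 6 rose, 3 fell and 1 did not pass, with 18.7% of all genes called higher and 16.8% lower.

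**Figure D1:**
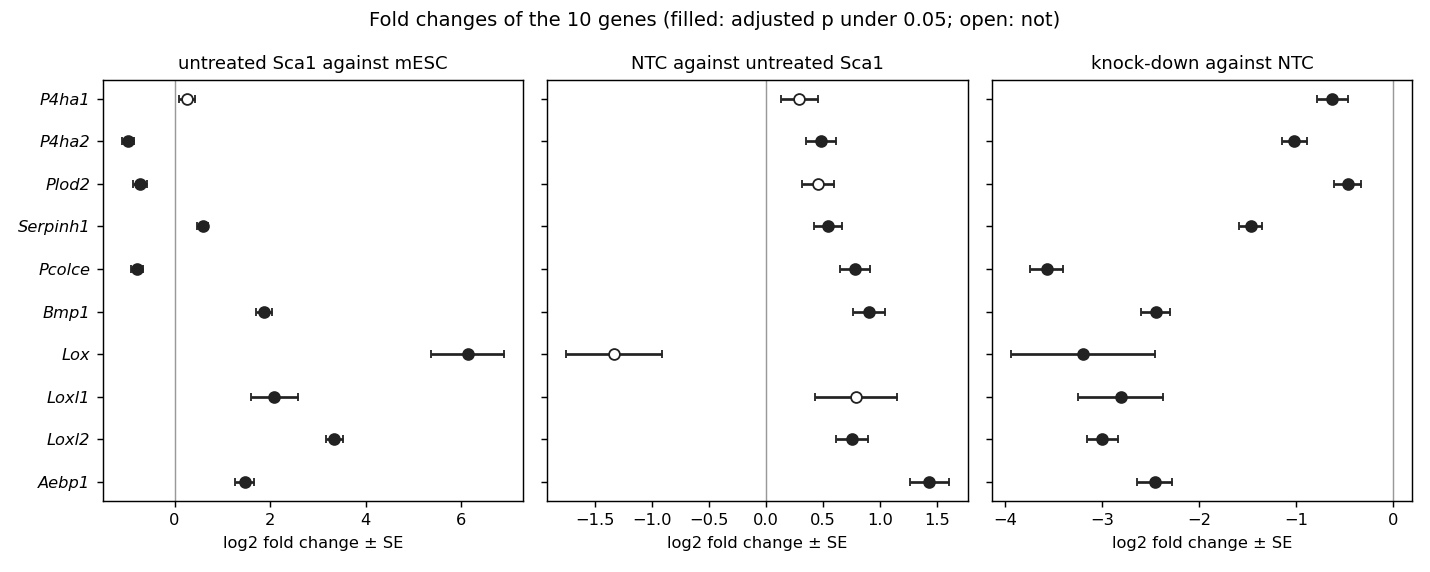
Log2 fold change of each of the 10 genes in the comparisons, with its standard error as a bar, from the edgeR fit (horizontal axis; 1 row per gene, 1 panel per comparison; filled points passed at an adjusted p of 0.05). In knock-down against NTC all 10 points lie below 0, and in untreated Sca1 against mESC Pcolce, P4ha2 and Plod2 lie below 0 while 6 others that passed lie above.

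The prolyl 4-hydroxylase subunit P4ha1, the catalytic alpha subunit found in most cells, varied least between groups. It stood at 64.1 and 91.1 CPM in mESC, 102 and 83.1 in untreated Sca1, 107 and 121 in NTC, and 78.8 and 69.5 in the knock-down. The mESC and untreated libraries overlapped, and the log2 fold change of 0.26 ± 0.16 did not pass (adjusted p = 0.229), but without mESC library 2 it was 0.54 with an adjusted p of 0.0109. The fall in the knock-down against NTC had a log2 fold change of -0.63 ± 0.16 (adjusted p = 0.0122). It was lost without NTC library 2 (0.156), knock-down library 1 (0.0682) or knock-down library 2 (0.22).

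P4ha2, the other alpha subunit, had a different course. It stood at 174 and 162 CPM in mESC, 91.5 and 79.1 in untreated Sca1, 122 and 116 in NTC, and 56.4 and 60.7 in the knock-down. mESC was the highest group and the knock-down the lowest, and no 2 groups overlapped. P4ha2 fell from mESC to untreated Sca1 (log2 fold change -0.97 ± 0.13, adjusted p = 9.8e-06) and fell in the knock-down against NTC (-1.02 ± 0.13, adjusted p = 1.97e-05).

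Plod2, which hydroxylates lysines in the collagen telopeptides, stood at 177 and 244 CPM in mESC, 119 and 138 in untreated Sca1, 171 and 179 in NTC, and 124 and 129 in the knock-down. Untreated and knock-down libraries overlapped, as did mESC and NTC, and the first 2 groups lay below the other 2. It fell from mESC to untreated Sca1 (log2 fold change -0.72 ± 0.14, adjusted p = 0.000789). Its fall in the knock-down had a log2 fold change of -0.47 ± 0.14 and an adjusted p of 0.0348. That call was lost with DESeq2 (0.0677), with library totals in place of TMM (0.0659), and without NTC library 1 (0.149), NTC library 2 (0.214), knock-down library 1 (0.235) or knock-down library 2 (0.201).

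Serpinh1 was the most abundant of the 10. It stood at 482 and 444 CPM in mESC, 736 and 659.6 in untreated Sca1, 1037 and 993 in NTC, and 374 and 359.6 in the knock-down. The 4 groups did not overlap, with NTC the highest and the knock-down the lowest. It rose from mESC to untreated Sca1 (log2 fold change 0.59 ± 0.12, adjusted p = 0.000861) and fell in the knock-down against NTC (-1.47 ± 0.12, adjusted p = 1.09e-07).

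Bmp1, a metalloproteinase that removes the C-propeptide and also processes lysyl oxidase precursors, stood at 15.8 and 15.6 CPM in mESC, 60.0 and 54.8 in untreated Sca1, 109.7 and 105 in NTC, and 20.3 and 19.1 in the knock-down. Its libraries within a group lay close together and the 4 groups did not overlap. Bmp1 rose from mESC to untreated Sca1 (log2 fold change 1.87 ± 0.16, adjusted p = 1.09e-07) and fell in the knock-down (-2.45 ± 0.15, adjusted p = 4.65e-09).

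Pcolce, which binds the C-propeptide and speeds its removal by Bmp1, followed another course. It stood at 126 and 112 CPM in mESC, 75.1 and 63.2 in untreated Sca1, 120.3 and 119 in NTC, and 10.5 and 9.67 in the knock-down. mESC and NTC overlapped, untreated Sca1 lay below both, and the knock-down lay far below every other group. Pcolce fell from mESC to untreated Sca1 (log2 fold change -0.78 ± 0.13, adjusted p = 0.000206), while Bmp1 rose. In the knock-down against NTC it was 11.9-fold lower (log2 fold change -3.57 ± 0.17, adjusted p = 1.38e-10), and against mESC its log2 fold change was also -3.57 ± 0.17 (adjusted p = 3.18e-10).

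Of the 3 lysyl oxidases, Loxl2 was the most abundant per transcript length in every group. It stood at 10.3 and 14.7 CPM in mESC, 143 and 109 in untreated Sca1, 211 and 215 in NTC, and 24.9 and 27.9 in the knock-down. The 4 groups did not overlap. Loxl2 rose from mESC to untreated Sca1 (log2 fold change 3.34 ± 0.18, adjusted p = 3.58e-10) and fell in the knock-down (-3.0 ± 0.16, adjusted p = 7.33e-10).

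Lox, the founding member of the family, rested on few reads. The libraries held 1 and 0 counts in mESC, 42 and 15 in untreated Sca1, 13 and 22 in NTC, and 2 and 1 in the knock-down. The 57 untreated counts against 1 in mESC gave a ratio of 92.4 after scaling, with an exact 95% counting interval of 15.9 to 3712 (adjusted p of the edgeR fit 7.22e-06). The 35 NTC counts against 3 in the knock-down gave a ratio of 9.91, with an interval of 3.12 to 50.4 (adjusted p = 0.00637). That fall was lost without NTC library 2 (0.0838) or knock-down library 2 (0.181). The intervals cover counting error only.

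Loxl1, which acts on elastin as well as collagen, was also low. The libraries held 9 and 5 counts in mESC, 19 and 18 in untreated Sca1, 45 and 58 in NTC, and 8 and 4 in the knock-down, or 2.06 and 1.1, 5.87 and 7.95, 10.6 and 12.9, and 2.8 and 0.879 CPM. mESC and the knock-down overlapped and lay below the other groups. Loxl1 rose from mESC to untreated Sca1 (log2 fold change 2.09 ± 0.49, adjusted p = 0.0028) and fell in the knock-down (-2.81 ± 0.44, adjusted p = 0.00023).

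Aebp1, a secreted protein that binds collagen and takes part in fibril assembly, stood at 11.4 and 13.4 CPM in mESC, 35.2 and 33.6 in untreated Sca1, 99.7 and 85.6 in NTC, and 19.6 and 14.7 in the knock-down. The 4 groups did not overlap. It rose from mESC to untreated Sca1 (log2 fold change 1.47 ± 0.20, adjusted p = 2.19e-05) and fell in the knock-down (-2.46 ± 0.18, adjusted p = 2.64e-08).

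**Figure D2:**
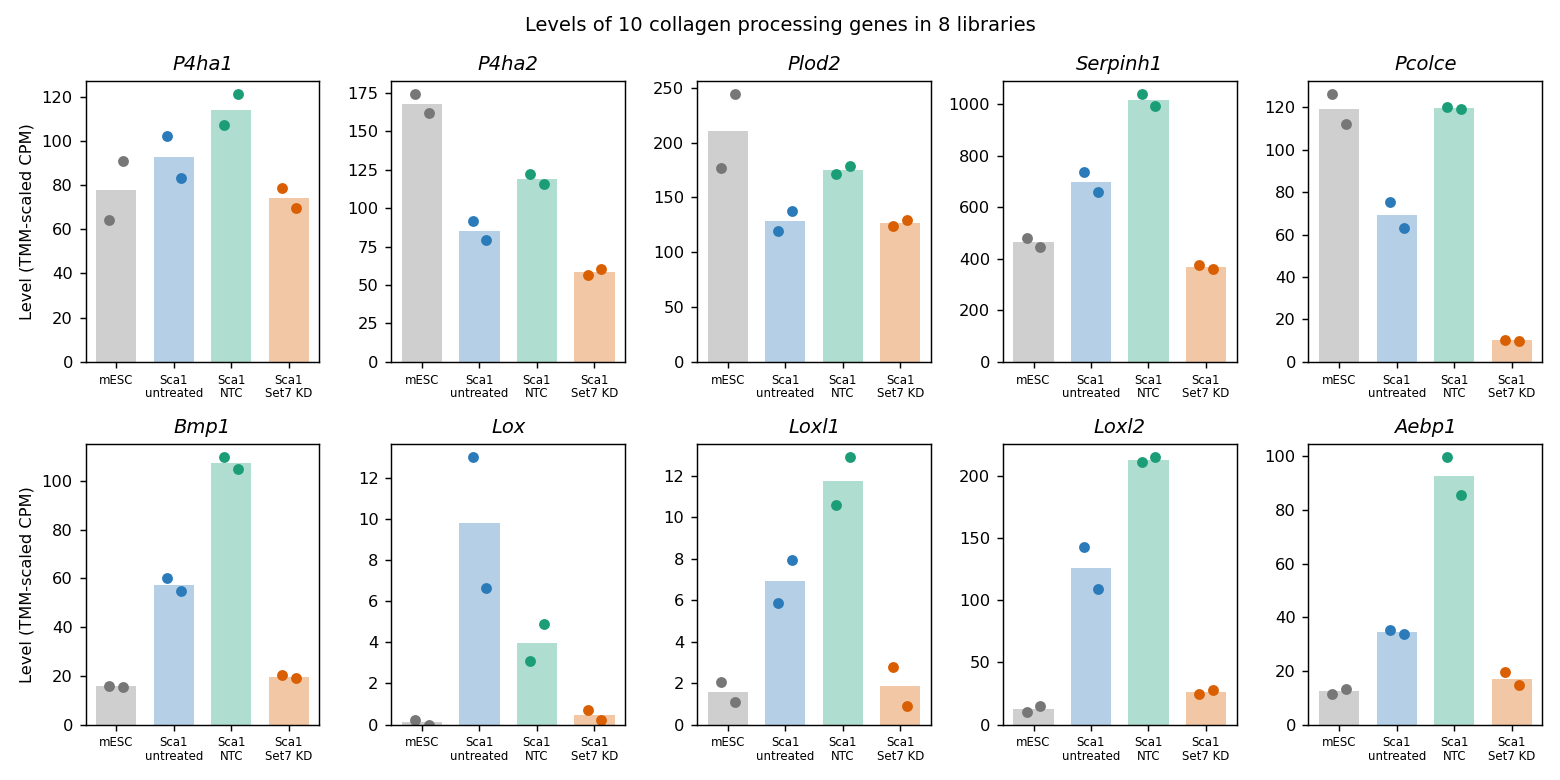
TMM-scaled CPM of each of the 10 genes in all 8 libraries, 1 panel per gene with its own vertical axis from 0; the horizontal axis gives the 4 groups, points are libraries and bars the mean of 2. Knock-down libraries lie below NTC libraries in every panel, and the means of P4ha2 and Plod2 are highest in mESC, although Plod2 libraries of mESC and NTC overlap.

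NTC cells also differed from untreated Sca1 cells. Of the 10 genes, 6 rose in NTC and 4 did not pass, against 3.88% of all genes called higher and 1.11% lower. Aebp1 rose most, by 1.43 ± 0.17 on the log2 scale (adjusted p = 0.000133). Bmp1 rose by 0.9 ± 0.14 (0.00144), Pcolce by 0.78 ± 0.13 (0.00298), Loxl2 by 0.75 ± 0.14 (0.00616), Serpinh1 by 0.54 ± 0.12 (0.0147) and P4ha2 by 0.48 ± 0.13 (0.0369). The values that did not pass were -1.33 ± 0.42 for Lox (0.0815), 0.45 ± 0.14 for Plod2 (0.0831), 0.79 ± 0.36 for Loxl1 (0.223) and 0.29 ± 0.16 for P4ha1 (0.32). Without NTC library 1 only Aebp1 was called of the 10; without NTC library 2, 2 were, and without untreated library 2, 3 were, with Loxl2 (0.0691), P4ha2 (0.184) and Serpinh1 (0.0949) lost. P4ha2 was lost in 9 of 17 alternatives, among them DESeq2 (0.0596). With library totals P4ha2 (0.0907) and Serpinh1 (0.069) were lost. Without mESC library 1, which is in neither group, Lox (0.0321) and Plod2 (0.00758) passed, as they did without mESC library 2 (0.0301 and 0.00838). The scaling mattered to this comparison over all genes: 77.8% of its calls were higher with TMM and 96.5% with library totals alone. For knock-down against NTC the same shares were 29.7% and 18.3%.

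The knock-down was also compared with the groups it shares no vector with. Against untreated Sca1, 8 of the 10 genes were lower and 2 did not pass, where 9.89% of all genes were called lower and 7.34% higher. P4ha1 (log2 fold change -0.34, adjusted p = 0.186) and Plod2 (-0.02, adjusted p = 0.957) did not pass. Without knock-down library 2 the count was 5, with Loxl1 (0.219), P4ha2 (0.0709) and Aebp1 (0.0775) lost. Loxl1 was also lost without untreated library 2 (0.0656), and P4ha2 without untreated library 1 (0.0874), without knock-down library 1 (0.106) and with library totals (0.104). Against mESC, 1 gene was higher and 4 were lower, where 13.5% of all genes were called higher and 12.4% lower. Loxl2 was the higher one (1.08 ± 0.21, adjusted p = 0.000859). Pcolce, P4ha2 (-1.52 ± 0.13, adjusted p = 1.42e-07), Plod2 (-0.74 ± 0.14, adjusted p = 0.000845) and Serpinh1 (-0.33 ± 0.12, adjusted p = 0.0477) were the lower ones; the Serpinh1 call was lost in 9 of 17 alternative settings, among them without mESC library 1 (0.0849). Bmp1, Lox, Loxl1, P4ha1 and Aebp1 did not pass (log2 fold changes 0.32, 1.6, 0.07, -0.07 and 0.43), which does not show that their levels were equal. In NTC against mESC, 7 of the 10 were higher and 1 (P4ha2) lower, where 19.6% of all genes were called higher and 15.5% lower; Pcolce had a log2 fold change of 0.0 (adjusted p = 0.998). Plod2, which did not pass there, passed as lower without mESC library 1 (0.0028). The P4ha1 call there was lost without mESC library 1 (0.0769) or NTC library 2 (0.117), and that of P4ha2 without NTC library 2 (0.0605) or with library totals (0.105). For that comparison 55.9% of all calls were higher with TMM and 70.7% with library totals, which moved the median of all genes to 0.12 on the log2 scale. For knock-down against mESC the shares were 52.1% and 64.0%. These comparisons share libraries with each other and are not separate evidence.

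The descriptions of the libraries carry the codes 12, 34 and 56, whose meaning is not given. They also carry a number, which is 1, 2 and 3 for these codes in turn, so code and number divide the libraries alike. Code 34 holds 1 library of every group. In mESC and in untreated Sca1, library 1 is code 34 and library 2 is code 56, so the spread within each of these groups lies between the same codes. Within code 12 and within code 34, all 10 genes were lower in the knock-down than in NTC. That follows from libraries that do not overlap and is no further evidence. Pcolce differed by -3.45 and -3.55 on the log2 scale, Loxl2 by -3.06 and -2.92 and Plod2 by -0.46 and -0.47 in codes 12 and 34. Within codes 34 and 56, untreated Sca1 minus mESC kept 1 sign for the 9 genes whose libraries do not overlap there, which also follows from that. P4ha1 was at 0.67 and -0.13. Code 56 holds no lentiviral library and code 12 no mESC or untreated one, so a lentiviral group can be set against mESC or untreated Sca1 within code 34 alone, 1 library against 1. There, NTC minus untreated Sca1 was 0.34 for P4ha2, 0.43 for Serpinh1, 0.58 for Loxl2, 0.66 for Pcolce, 0.8 for Bmp1 and 1.27 for Aebp1. Knock-down minus mESC was -3.64 for Pcolce, -1.51 for P4ha2, -0.46 for Plod2, -0.42 for Serpinh1 and 1.39 for Loxl2. For genes that did not pass in that comparison it was -0.02 for Lox and -0.88 for Loxl1, where the fit gave 1.6 and 0.07. The within-code values are differences of log-CPM with a prior count of 2, a measure unlike the fit's at few counts. For Lox that pair held 1 count against 1.

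Divided by the length of the counted transcript, the genes can be set beside each other. Serpinh1 was first in every group, at 217 ± 12.6, 328 ± 25.4, 477 ± 14.8 and 172 ± 4.91 CPM per kilobase (SD, n = 2) in mESC, untreated Sca1, NTC and knock-down. In mESC it was followed by P4ha2 (74.3 ± 3.76) and Pcolce (73.4 ± 6.05), which did not differ beyond their spread, and by Plod2 (57.5 ± 12.9). In NTC it was followed by Pcolce (73.5 ± 0.747) and Loxl2 (70.0 ± 0.939), then P4ha2 (52.7 ± 1.89) and Plod2 (47.7 ± 1.48). Bmp1 (29.1 ± 0.941) and P4ha1 (28.2 ± 2.4) did not differ beyond their spread there. In the knock-down Plod2 was second (34.5 ± 0.932) and P4ha2 the third (25.9 ± 1.34), while Pcolce was at 6.21 ± 0.363 and Loxl2 at 8.68 ± 0.709. Loxl1 and Lox were last in every group, at 3.57 ± 0.492 and 0.841 ± 0.273 in NTC. In untreated Sca1, Pcolce (42.5 ± 5.18), Loxl2 (41.5 ± 7.97), P4ha2 (37.7 ± 3.87) and Plod2 (35.1 ± 3.64) followed Serpinh1, and neighbours in that order did not differ beyond their spread.

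**Figure D3:**
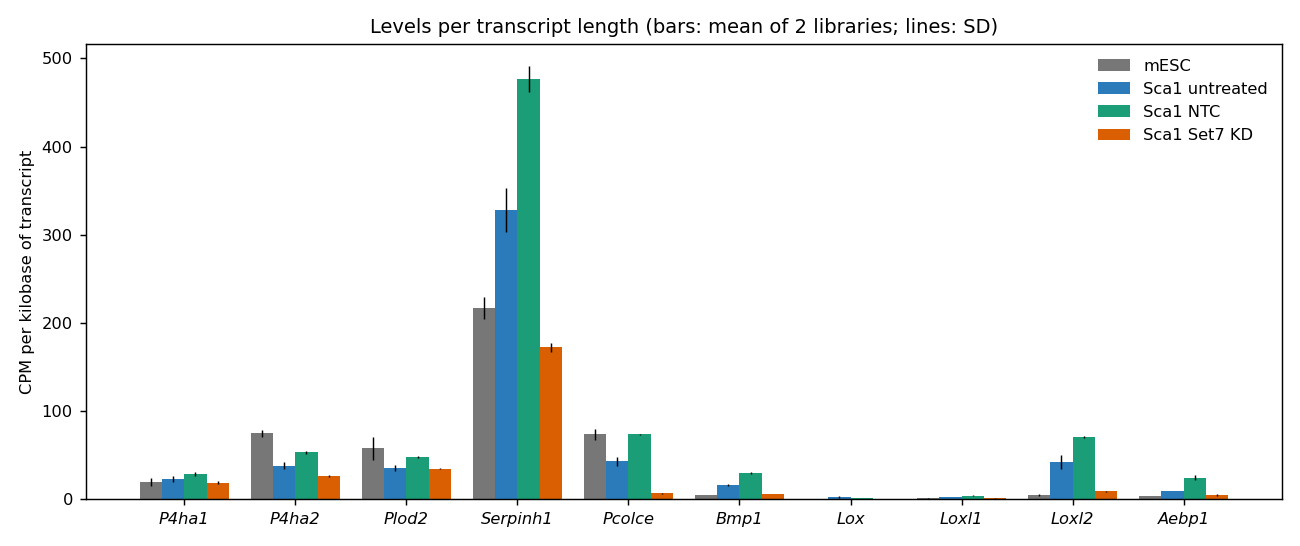
Mean level per kilobase of transcript (vertical axis, CPM per kilobase, from 0) for each gene on the horizontal axis, with 1 bar per group and the SD of 2 libraries as a line. Serpinh1 is the tallest in all 4 groups, and Pcolce and Loxl2 bars are short in the knock-down, at 6.21 and 8.68.

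Other genes of the pathway were taken from lists chosen by function. Over all genes, 10.1% were called lower in the knock-down against NTC and 4.25% higher. Of 17 tested collagen-modifying enzymes and chaperones of the endoplasmic reticulum besides the 10, 10 fell and 7 did not pass, with a median log2 fold change of -0.64. Among them were the prolyl isomerase Fkbp10 (log2 fold change -1.92 ± 0.14, adjusted p = 2.18e-08), P3h4 (-1.66 ± 0.17), which belongs to a complex with Plod1, the lysyl hydroxylase Plod3 (-1.38 ± 0.15) and Fkbp9 (-0.92 ± 0.11). P4hb, the beta subunit that P4ha1 and P4ha2 both need, was at 1056 and 1087 CPM in NTC and 874 and 888 in the knock-down (-0.28 ± 0.12, adjusted p = 0.133). Crtap, of the prolyl 3-hydroxylation complex, was at -0.02 ± 0.12 (adjusted p = 0.951). Of the 17, 5 rose in NTC against untreated Sca1, where 3.88% of all genes were called higher and 1.11% lower. P3h1 and Fkbp10 were among the 5, and all 5 calls were lost without NTC library 1 and without NTC library 2. P3h1 was at 56.2 and 60.1 CPM in untreated Sca1, 96.4 and 90.5 in NTC, and 59.9 and 60.0 in the knock-down. Fkbp10 was at 101 and 94.1, 168 and 152, and 43.4 and 41.3 CPM in the same order. In untreated Sca1 against mESC the same list split, with 3 higher (Fkbp10, P3h4 and P4ha3) and 7 lower, among them Crtap (-1.14 ± 0.13) and Plod1 (-0.76 ± 0.15). Over all genes 18.7% were called higher and 16.8% lower there, so the count of 3 of 17 higher is near the share. The P4ha3 call was lost with DESeq2 (adjusted p = 0.126) and without any 1 of the mESC and untreated libraries (0.0632 to 0.151) or of the NTC libraries (0.0579 and 0.0589).

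Of 8 other tested extracellular proteinases, enhancers and lysyl oxidases, 4 fell in the knock-down and 1 rose, where 10.1% of all genes were called lower and 4.25% higher. Those that fell were Adamts2, which removes the N-propeptide (log2 fold change -4.06 ± 0.57, adjusted p = 6.71e-05), Loxl4 (-2.31 ± 0.36, 0.000224), the proprotein convertase Furin (-0.97 ± 0.14, 0.000125) and Loxl3 (-0.66 ± 0.22, 0.0483). The Loxl3 call was lost without any 1 of the 4 libraries compared (adjusted p 0.165 to 0.353) and with DESeq2 (0.198), RLE factors (0.0552) or library totals (0.0527). The meprin subunit Mep1b rose by 1.04 ± 0.22 (0.00385), a call lost without NTC library 1 (0.0621) or knock-down library 2 (0.102). Pcolce2, the paralog of Pcolce, was at 0.23 ± 0.20 (adjusted p = 0.527) in the knock-down. It fell from mESC to untreated Sca1 (log2 fold change -1.43 ± 0.21), as Pcolce did.

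The collagens that these enzymes act on were read from the same fit. Of 10 tested collagen and elastin genes, 6 fell in the knock-down and 4 did not pass (median -2.85), where 10.1% of all genes were called lower. Col3a1 was at 656 and 659 CPM in NTC and 6.3 and 7.03 in the knock-down (-6.6 ± 0.16, adjusted p = 1.05e-14), and Col1a1 at 788 and 739 against 23.1 and 13.6 (-5.43 ± 0.20). Col1a2 (-3.53 ± 0.13) and Col5a1 (-3.01 ± 0.17) fell as well. In mESC, Col3a1 had 2 counts against 1369 in untreated Sca1, a ratio of 1109 with a counting interval of 306 to 9168. Serpinh1, P4ha2, Plod2 and Pcolce were at 112 CPM or more in mESC libraries in which Col1a1 was at 0.916 and 1.32 CPM and Col3a1 at 0.229 and 0.22. Other substrates were higher there, with Col27a1 at 32.5 and 45.1, Col5a1 at 18.5 and 21.8 and Col2a1 at 9.39 and 7.7 CPM.

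Of 10 tested fibril assembly partners, 9 fell in the knock-down and 1 did not pass (median -2.32), where 10.1% of all genes were called lower. They included Thbs1 (-2.74 ± 0.14), Bgn (-3.09 ± 0.32) and Efemp2 (-1.53 ± 0.21), which brings lysyl oxidase to elastic fibres. Postn, which binds Bmp1, had 237 counts over the NTC libraries and 0 over those of the knock-down. With a floor of 3 counts over the group, that is at least 67.1-fold lower.

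Genes that serve secretion in general were also listed. Of 14 tested endoplasmic reticulum chaperones, 9 fell in the knock-down against NTC and 5 did not pass (median -0.45), where 10.1% of all genes were called lower. They included Pdia4 (-0.91 ± 0.11) and Hspa5 (-0.71 ± 0.12). Of the 14, 6 rose in NTC against untreated Sca1, where 3.88% of all genes were called higher and 1.11% lower. Without NTC library 1 the calls of Hspa5 (adjusted p = 0.0751), Pdia6 (0.181) and Hyou1 (0.0605) were lost. Hspa5 was at 1060 and 1148 CPM in untreated Sca1, 1797 and 1857 in NTC, and 1058 and 1175 in the knock-down. Pdia4 was at 284 and 309, 503 and 501, and 256 and 276 CPM in the same order. List counts for knock-down against untreated Sca1 are not given here. Of 14 procollagen export genes, Creb3l1 (-2.14 ± 0.24) and Sec23a (-0.57 ± 0.16) fell and Klhl12 (0.57 ± 0.13) rose, counts near the shares over all genes (10.1% lower and 4.25% higher). The Sec23a call was lost without any 1 of the 4 libraries compared (adjusted p 0.0948 to 0.222), with DESeq2 (0.074) or with library totals (0.0926), and that of Klhl12 without NTC library 1 (0.0904), NTC library 2 (0.0983) or knock-down library 2 (0.131). P4ha1, P4ha2, Plod2, Lox and Loxl2 are known hypoxia-inducible factor targets. Of 19 other tested targets of that factor, 1 fell (Egln1, -0.88 ± 0.21) and 1 rose (Ddit4, 0.64 ± 0.17), with a median of 0.13, counts at or near the shares over all genes (10.1% lower and 4.25% higher). The Egln1 call was lost without NTC library 2 (adjusted p = 0.0989), knock-down library 1 (0.078) or knock-down library 2 (0.135), and that of Ddit4 without any 1 of the 4 libraries compared (0.0616 to 0.187) or with library totals (0.0759). From mESC to untreated Sca1, 9 of these 19 rose and 3 fell (Pdk1, Kdm3a and Mxi1), where 18.7% of all genes were called higher and 16.8% lower. Without untreated library 1 the falls of Pdk1 (adjusted p = 0.0516) and Mxi1 (0.0714) and the rise of Pfkfb3 (0.0673) were lost. The falls of Kdm3a (0.0574) and Mxi1 (0.121) were lost without untreated library 2.

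In the comparisons without the knock-down, the same lists were counted. From mESC to untreated Sca1, 7 of the 10 substrates rose and 2 fell (Col5a3 and Col27a1), and 7 of the 10 fibril assembly partners rose and 3 fell (Fn1, Sparc and Ltbp4). Of the 14 general chaperones, 1 rose (Manf) and 6 fell. The fall of Pdia4 was lost without mESC library 2 (adjusted p = 0.0797), without untreated library 1 (0.112) or with library totals (0.127). That of Creld2 was lost without untreated library 2 (0.0718) or with library totals (0.0986). Of the export genes, Sec24d, Tfg and Creb3l1 rose and Klhl12 and Kdelr3 fell, which is 3 and 2 of 14, near the shares over all genes in this comparison (18.7% higher and 16.8% lower). Of the 8 extracellular enzymes, Adamts2 and Loxl4 rose and Pcolce2 and Mep1b fell, also near those shares. The Fn1 call was lost without mESC library 2 (adjusted p = 0.196), without any 1 untreated library (0.114 and 0.152) or with library totals (0.208), and that of Adamts2 without mESC library 1 (0.0643) or untreated library 1 (0.0568). Without untreated library 2 the calls of Tfg (0.0746), Kdelr3 (0.107), Klhl12 (0.0774), Col5a3 (0.083), Col27a1 (0.0877), Sparc (0.0845) and Manf (0.186) were lost, and without mESC library 2 those of Tfg (0.0953), Col27a1 (0.0811) and Manf (0.115). In NTC against untreated Sca1, 3.88% of all genes were called higher and 1.11% lower. There, 5 of 17 endoplasmic reticulum enzymes, 4 of 10 substrates and 6 of 14 general chaperones rose. Of 19 hypoxia-inducible factor targets, 3 (Ldha, Ddit4 and Higd1a) fell. Of 8 extracellular enzymes, 3 rose (Adamts2, Loxl4 and Furin), as did 2 of 10 fibril assembly partners (Fn1 and Thbs1), and 0 of 14 export genes were called. Without NTC library 1 the calls of Adamts2, Loxl4 and Furin (adjusted p 0.21 to 0.295) and of Thbs1 (0.0912) were lost. They were also lost without NTC library 2 (0.186 to 0.335, and 0.0907). All 5 rises of endoplasmic reticulum enzymes (P3h1, Plod3, Fkbp10, Colgalt1 and Pdia3) were lost without NTC library 1 (adjusted p 0.0961 to 0.188) and without NTC library 2 (0.0516 to 0.202). Plod3 was also lost without untreated library 2 (0.108) and Pdia3 without untreated library 1 (0.0872). Of the other rises, Col1a2 (0.0741) and Hyou1 (0.0605) were lost without NTC library 1, Hspa5 without NTC library 1 (0.0751) or NTC library 2 (0.0833), and Pdia6 without any 1 of the untreated and NTC libraries (0.0543 to 0.248) or with library totals (0.0618). All 3 falls were lost with library totals (0.242, 0.0964 and 0.128) and without untreated library 1 (0.12, 0.202 and 0.47), NTC library 1 (0.234, 0.188 and 0.301) or NTC library 2 (0.236, 0.141 and 0.271).

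**Figure D4:**
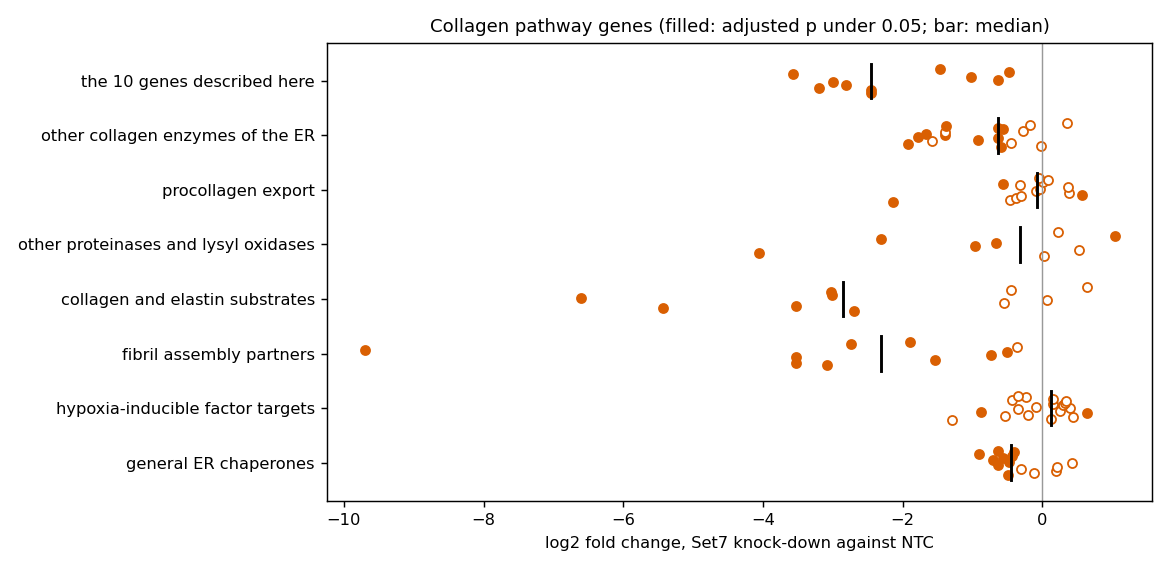
Log2 fold changes of the tested genes of each pathway list, in knock-down against NTC (horizontal axis), 1 point per gene, filled where it passed, with the list's median as a bar; the point farthest to the left is Postn, whose fitted value depends on the prior count. The substrates have a median of -2.85 and the hypoxia-inducible factor targets 0.13.

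Across the 8 libraries, the log-CPM of Bmp1 correlated with that of Loxl2 (r = 0.98), Aebp1 (0.98) and Serpinh1 (0.95), and that of Pcolce with that of P4ha2 (0.88). Plod2 was at -0.25 with Loxl2, and P4ha1 at 0.17 with P4ha2. Of the 9206 genes of sufficient level, those most alike were Dlk1 and Col4a6 for Bmp1 (0.998 and 0.997), Fzd1 and Itprip for Loxl2 (0.998 and 0.994), Col5a1 and Fam171a1 for Aebp1 (0.99 and 0.984), Robo2 and Pcdhga12 for Serpinh1 (0.988 and 0.987), and Ckap4 and Mier3 for Pcolce (0.988 and 0.98). For P4ha2 they were Mcam and Nid1 (0.981 and 0.97), for Plod2 Kidins220 and Kcnq1 (0.979 and 0.973), and for P4ha1 Fzd3 and Pigf (0.954 and 0.953). These values describe 8 libraries that fall in 4 groups and differ in depth, and carry no test. Lox and Loxl1 were too low for this search.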

How the data were processed

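Poly(A) RNA from 8 libraries was sequenced on a Genome Analyzer IIx, per the labels' protocols. Tools named in the submitters' processing notes, with no role for any, are BWA 0.5.9, SAMtools 0.1.17 and edgeR 0.19. For build, counter, annotation and strand, the entry is: not given in the sources used here. Read counts were deposited by the authors, 1 row for each RefSeq transcript, and were taken as unscaled because they are whole numbers with unequal totals. The table held 29614 rows. Names were matched for 28985 rows through RefSeq and 173 through GENCODE vM21. The row with the highest total stood for each of 23483 genes. Bmp1, P4ha2, Plod2 and Serpinh1 had several rows with identical values, so isoforms cannot be told apart, nor can antisense reads.

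After filterByExpr and TMM scaling, edgeR 4.0.16 (R 4.3.3) fitted 1 mean for each group to all 8 libraries, with a common dispersion of 0.0133 and 4 residual degrees of freedom. Robust quasi-likelihood F tests were adjusted by Benjamini-Hochberg over 13966 genes and called at 0.05. "Rose" and "fell" are such calls, and log-CPM used a prior count of 2. The ± on the log2 scale is an approximate standard error (SE), the absolute log2 fold change divided by the square root of F. The scripts were tested on simulated data. Alternatives included DESeq2 1.42.0, other scalings and filters, a 1.5-fold threshold, a replicate block and leaving out each library. The 10 genes, the lists and the tests were chosen with earlier results of these data known. Named genes are the 10, Setd7, Ly6a, up to 4 genes of a list with the smallest p, those behind counts of 5 or fewer, and the 2 most alike; P4hb, Crtap, Plod1 and Pcolce2 where they fall outside this were chosen after their values were seen.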

Additional observations from a re-analysis of the deposited data

How the results depend on the processing

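The values of the 10 genes were recomputed 1016 times under the alternatives, of which 922 kept direction and call, 67 lost a call, 12 gained one and 15 changed sign; the cause was not tested. The counts of all genes called were, in this order for untreated minus mESC, knock-down minus NTC, NTC minus untreated, knock-down minus mESC, NTC minus mESC and knock-down minus untreated, 4964, 1998, 697, 3615, 4898 and 2406. With a 1.5-fold threshold they were 2041, 597, 15, 1263, 2093 and 561. DESeq2 called 1225, 2405 and 1456 in knock-down against NTC, mESC and untreated Sca1. With the compared groups only, the counts were 3486, 4416, 1007, 3209, 4456 and 2599 in the same order as above. Without a filter, 1148 were called in NTC against untreated Sca1. Leaving out 1 library gave 3777 to 5695, 648 to 2826, 57 to 1517, 1844 to 4271, 2906 to 5267 and 796 to 3292. Of the 10 genes, 9, 10, 6, 5, 8 and 8 were called; with the 1.5-fold threshold 1 was in NTC against untreated Sca1, 3 in knock-down against mESC and 5 in knock-down against untreated Sca1, and leaving out 1 library gave 9 to 10, 7 to 10, 1 to 8, 4 to 5, 6 to 8 and 5 to 8.

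Sign changes were all of values that did not pass. P4ha1 in knock-down against mESC was 0.047 with library totals, 0.003 with the block, 0.2 without mESC library 2 and 0.023 without knock-down library 2 (lowest -0.306 when 1 library was left out). Loxl1 there was -0.326 without mESC library 2 and -0.808 without knock-down library 1 (highest 0.822), and Setd7 0.108 without mESC library 2 and 0.015 without knock-down library 2 (lowest -0.447). Pcolce in NTC against mESC was -0.007 with RLE, -0.004 with DESeq2, -0.116 with the block, -0.082 without mESC library 2 and -0.006 without NTC library 1. Plod2 in knock-down against untreated Sca1 was 0.064 with library totals, 0.184 with the block, 0.087 without untreated library 2 and 0.01 without knock-down library 1 (lowest -0.121). Serpinh1 was 6.49 times Pcolce in NTC per kilobase and 8.53 times as plain CPM.

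The replicate block was the number in the library descriptions, which follows their codes. With it, 5786, 2826, 1261, 3269, 4481 and 2533 genes were called, and 9, 10, 7, 5, 8 and 8 of the 10. In NTC minus untreated the block removed the call of P4ha2 (adjusted p = 0.0592) and added those of Lox (0.0496) and Plod2 (0.00183). Deviations of same-numbered libraries correlated at 0.265 between mESC and untreated Sca1 and at 0.053 between NTC and knock-down. The main fit left the number out, so any effect that libraries of a code share stays in its estimate of spread. The comparison of protein sequences was not run. Depth limits Lox most, with 96 counts over the 8 libraries.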
